A study of Mus musculus with 80 samples.

Results

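The genes described here encode proteins of the splicing machinery: the Sm and LSm rings of the small nuclear ribonucleoproteins, the SF3A and SF3B complexes, the SR proteins, the heterogeneous nuclear ribonucleoproteins (hnRNPs) and the pre-mRNA processing factors. They were chosen by gene symbol, and earlier results of these data were known when the list was made. The symbols begin with Snrp, Lsm followed by a number, Sf3a, Sf3b, Srsf followed by a number, Hnrnp or Prpf. The rule selected 74 of the 13016 genes tested. The Entrez identifiers of 2 of these rows belong to other genes, so 72 genes were counted as splicing factors, and the rows set aside are described at the end.

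Introns are removed by the spliceosome, which is built anew on each intron from the U1, U2, U4, U5 and U6 small nuclear ribonucleoproteins. The Sm ring holds the U1, U2, U4 and U5 RNAs and the LSm ring holds U6, while SF3A and SF3B belong to the U2 particle and help it to bind the branch site. SR proteins and hnRNPs bind the transcript itself, often with opposite effects on whether an exon is included, and alternative splicing is extensive in the brain.

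The samples came from C57BL/6 female mice (C57BL/6J in the methods of the study), 8 virgin and 8 primiparous (a single litter), from which the hypothalamus, cerebellum, hippocampus, neocortex and amygdala were taken. The labels place tissue collection 3 weeks after weaning, whereas the methods of the study give a longer interval, and the virgins were matched in age. Each primiparous female was penned with a male for 2 weeks from 8 weeks of age, and the virgins met no male, so that mating, pregnancy, nursing and housing are part of what separates the groups. Whole regions were dissected, from the left side except for the hypothalamus, and in such bulk tissue fewer cells of a type and less RNA per cell cannot be told apart.

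Counts were analysed for 77 libraries, with 8 per region and state except for the virgin cerebellum, hippocampus and amygdala, which have 7. Library totals ran from 7959192 to 37871854 counts. Region labels were checked on genes known for 1 region: Hcrt, the orexin precursor, lay between 150.6 and 366.7 CPM (counts scaled to a common library total) in the hypothalamus and at most 15.8 CPM elsewhere, Gabra6 of cerebellar granule cells was at least 536.3 CPM in the cerebellum and at most 54.3 CPM elsewhere, and C1ql2 of the dentate gyrus was at least 71.6 CPM in the hippocampus and at most 25.8 CPM elsewhere. Rspo2 did not set the amygdala apart, with 5.15 to 16.9 CPM there and 0.758 to 27.1 CPM in the other regions. The libraries of each region were pooled for sequencing, so that region and sequencing pool cannot be told apart.

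In the hypothalamus, 21 of the 72 splicing factors differed between primiparous and virgin females (29.2%), 9 of them higher and 12 lower in primiparous females (edgeR quasi-likelihood test, Benjamini-Hochberg adjusted p under 0.05 over all genes). Over all 13016 genes the same test called 22.6%, 10.8% higher and 11.8% lower, which is the background for the class counts below. The changes were small, between −0.32 (Prpf39) and 0.59 (Lsm2) on the log2 scale, with a median over the 72 genes of −0.02 against 0.01 over all genes. Of the called genes named by rule, 6 lost their call in some of the 16 fits without 1 library, namely Prpf39 (11 fits), Lsm12 (8), Lsm4 (6), Sf3b1 (6), Snrpe (5) and Srsf10 (4). For none of the 72 did the 8 virgin and the 8 primiparous libraries separate without overlap, as they did for 0.884% of all genes. Leaving out single libraries moved the count between 13 and 33: it was 13 without primiparous animal 414 or 421 or without virgin animal 4488 or 4490, 33 without primiparous animal 418 and 32 without virgin animal 409.

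**Figure D1:**
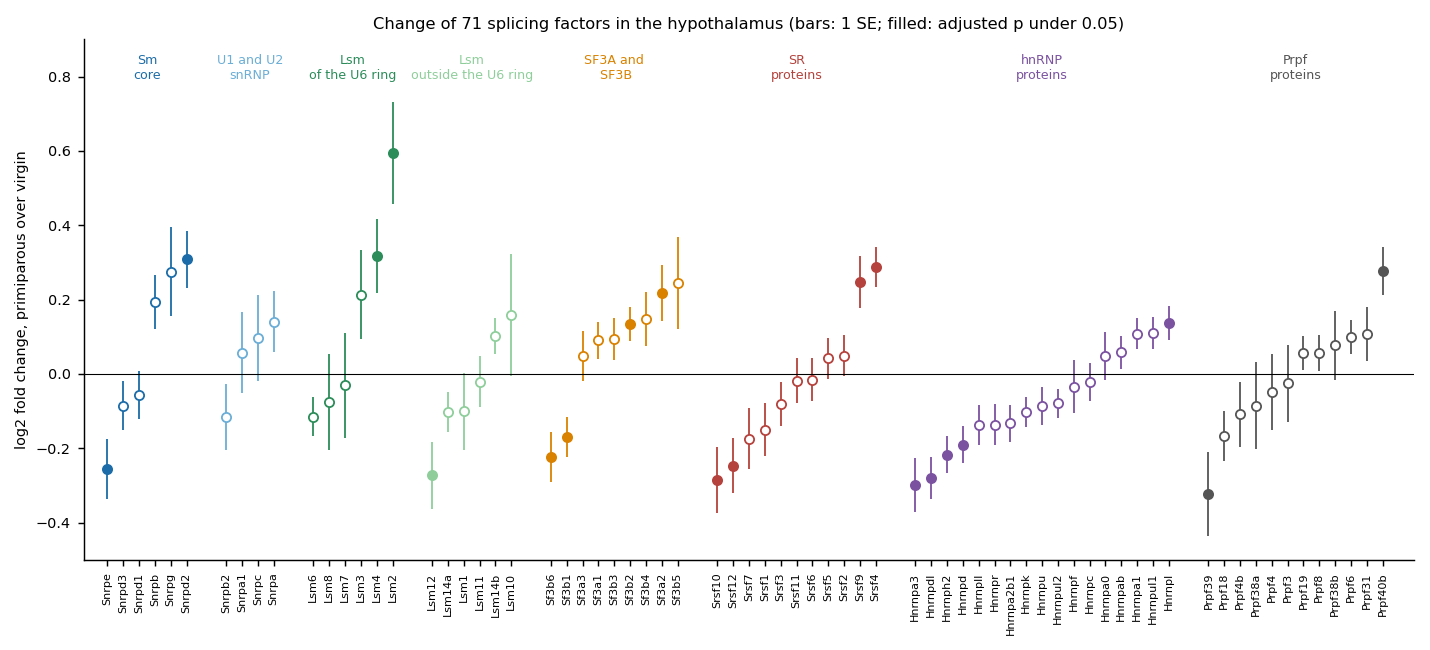
Log2 fold change of primiparous over virgin females in the hypothalamus (vertical axis) for 71 of the 72 splicing factors, sorted within its class (horizontal axis). Bars are 1 standard error, and filled symbols are the 20 of them with an adjusted p under 0.05. Genes above and below 0 occur in every class.

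The factors that rose and those that fell differed in base composition. GC content of the exons was 47.2 to 62.2% in the 9 that rose (median 54.2%) and 37.6 to 46.4% in the 12 that fell (median 41.8%), ranges that do not overlap. The first coding bases of the called gene with the highest and of that with the lowest GC content are shown for this contrast, as coding bases 1 to 120 from the mm10 transcripts of GENCODE M21, with every G and C in capitals. Sf3a2 (chr10:80798198-80804924, + strand) rose and Prpf39 (chr12:65036333-65063386, + strand) fell.
Sf3a2: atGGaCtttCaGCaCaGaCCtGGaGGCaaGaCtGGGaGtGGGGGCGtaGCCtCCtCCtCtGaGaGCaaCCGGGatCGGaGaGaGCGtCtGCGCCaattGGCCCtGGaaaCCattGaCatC
Prpf39: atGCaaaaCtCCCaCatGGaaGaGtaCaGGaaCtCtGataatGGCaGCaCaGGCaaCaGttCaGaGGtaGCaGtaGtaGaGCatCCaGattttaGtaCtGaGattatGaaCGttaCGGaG
Of these 120 bases, 71 are G or C in Sf3a2 and 53 in Prpf39. Over whole coding sequences the medians were 57.5% in the factors that rose and 45.9% in those that fell, with overlapping ranges (51.9 to 62.6% and 38.3 to 60.3%), and at the third codon position 64.7% and 45.3%. Exon GC content also differed over all genes, with medians of 56.7% in those called higher and 42.2% in those called lower and overlapping ranges. The relation of GC content to the changes is taken up after the classes.

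Among the 6 Sm core proteins, Snrpd2 rose and Snrpe fell. Snrpd2 (SmD2; chr7:19149722-19153542) ran from 37.1 to 47.7 CPM in the virgin libraries (median 42.5) and from 42.1 to 62.3 CPM in the primiparous libraries (median 52.8). The groups overlapped, with 7 of 8 primiparous libraries above the virgin mean, and the log2 fold change was 0.31 ± 0.08 (SE; adjusted p = 0.0077, edgeR). Snrpe (SmE; chr1:133603871-133610291) went the other way, from 18.1 to 20.3 CPM in virgins (median 19.4) and from 13.8 to 19.0 CPM in primiparous females (median 16.5). All 8 primiparous libraries lay below the virgin mean of Snrpe, with a log2 fold change of −0.26 ± 0.08 (adjusted p = 0.0267, edgeR). Snrpb, which gives the SmB proteins, did not pass the test at 0.19 ± 0.07 (adjusted p = 0.0531, edgeR), with 53.5 ± 4.38 CPM in virgins and 62.2 ± 7.65 CPM in primiparous females (SD, n = 8 each).

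None of the 4 U1 and U2 proteins with Snrp symbols passed the test in the hypothalamus. Snrpa, which binds a loop of U1 RNA, was at 37.4 ± 3.62 CPM in virgins and 42.1 ± 6.14 CPM in primiparous females (SD, n = 8 each). Snrpb2, its U2 counterpart, was at 22.4 ± 2.56 and 20.9 ± 2.62 CPM. The adjusted p was 0.218 for Snrpa and 0.358 for Snrpb2 (edgeR).

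Of the 6 measured LSm proteins of the U6 ring, Lsm2 and Lsm4 rose and none fell. Lsm2 (chr17:34981862-34985891) had the largest change among the 72 genes and also the lowest virgin mean, with 51 to 141 counts per virgin library. It ran from 4.83 to 6.64 CPM in virgins (median 5.89) and from 5.20 to 10.4 CPM in primiparous females (median 9.31). A single primiparous library fell inside the virgin range, the other 7 lying above it, and the log2 fold change was 0.59 ± 0.14 (adjusted p = 0.00524, edgeR). Lsm4 (chr8:70673248-70678752) ran from 20.3 to 33.4 CPM in virgins (median 27.4) and from 26.2 to 39.4 CPM in primiparous females (median 34.4). The groups overlapped, and the log2 fold change was 0.32 ± 0.10 (adjusted p = 0.0255, edgeR).

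LSm proteins outside the U6 ring serve other particles, such as the U7 particle of histone mRNA processing (Lsm10, Lsm11). Of the 6 measured, Lsm12 fell and the others did not pass the test. Lsm12 (chr11:102162497-102185296) ran from 21.2 to 31.8 CPM in virgins (median 26.9) and from 19.3 to 29.3 CPM in primiparous females (median 21.9), a log2 fold change of −0.27 ± 0.09 (adjusted p = 0.0335, edgeR). The highest primiparous value, of animal 413, stood apart from the rest of its group. The call of Lsm12 was lost in 4 of the 13 other settings and in 8 of the 16 fits without 1 library. Lsm14b, a protein of mRNA storage granules, had a log2 fold change of 0.10 ± 0.05 (adjusted p = 0.132, edgeR).

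The 9 SF3A and SF3B subunits divided evenly among those called, with Sf3a2 and Sf3b2 higher and Sf3b1 and Sf3b6 lower. Sf3b1 (chr1:54985169-55027481), the large subunit around the branch site, ran from 228.4 to 270.3 CPM in virgins (median 254.1) and from 188.0 to 255.8 CPM in primiparous females (median 226.3). Its decrease was −0.17 ± 0.05 on the log2 scale (adjusted p = 0.0294, edgeR), with 6 of 8 primiparous libraries below the virgin mean. Sf3b6 (chr12:4817544-4827659), which contacts the branch point, ran from 40.1 to 47.6 CPM in virgins (median 43.1) and from 33.4 to 46.2 CPM in primiparous females (median 36.5). It fell by 0.22 ± 0.07 on the log2 scale (adjusted p = 0.02, edgeR), while 1 primiparous library reached the upper virgin range. Sf3a2, whose sequence is shown above, went from 25.03 ± 1.99 to 29.5 ± 3.53 CPM, and Sf3b2 from 242.3 ± 9.98 to 270.2 ± 19.8 CPM (SD, n = 8 each). Their log2 fold changes were 0.22 ± 0.08 and 0.13 ± 0.05 (adjusted p = 0.0421 and 0.0344, edgeR).

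Among the 11 SR proteins, Srsf4 and Srsf9 rose and Srsf10 and Srsf12 fell. Srsf4 (chr4:131873617-131901706) had the smallest p of all 72 genes. It ran from 60.8 to 73.8 CPM in virgins (median 67.2) and from 72.1 to 95.2 CPM in primiparous females (median 83.0). The groups overlapped only where the highest virgin library passed the lowest primiparous one, and the log2 fold change was 0.29 ± 0.05 (adjusted p = 0.00208, edgeR). Srsf9 (chr5:115327177-115333080) ran from 28.7 to 33.3 CPM in virgins (median 31.5) and from 32.6 to 43.6 CPM in primiparous females (median 37.5), a log2 fold change of 0.25 ± 0.07 (adjusted p = 0.0153, edgeR). All 8 primiparous libraries were above the virgin mean of Srsf9.

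Srsf10 (chr4:135855747-135869908), an SR protein that can act as a splicing repressor, ran from 53.3 to 77.8 CPM in virgins (median 67.0) and from 45.9 to 73.2 CPM in primiparous females (median 54.2). Srsf12 ran from 26.6 to 35.5 CPM in virgins (median 33.2) and from 24.8 to 32.9 CPM in primiparous females (median 26.9). Both pairs of groups overlapped widely, with log2 fold changes of −0.29 ± 0.09 and −0.25 ± 0.07 (adjusted p = 0.0234 and 0.021, edgeR). Srsf2 and Srsf3, the general SR proteins named SC35 and SRp20 in older work, did not pass the test, with log2 fold changes of 0.05 ± 0.05 and −0.08 ± 0.06 (adjusted p = 0.533 and 0.324, edgeR).

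The hnRNP class held 17 of the 72 genes, and 4 of them fell while 1 rose (11.8% and 10.8% of all genes). Hnrnpdl (chr5:100033577-100039664), close in sequence to hnRNP D, had the second smallest p of the 72. It ran from 103.8 to 133.6 CPM in virgins (median 120.6) and from 85.2 to 113.3 CPM in primiparous females (median 101.4). Every primiparous library was below the virgin mean, and the log2 fold change was −0.28 ± 0.06 (adjusted p = 0.00272, edgeR). Its neighbour Hnrnpd (chr5:99955935-99978938), known as AUF1 and as a regulator of mRNA decay, went from 238.4 ± 11.9 to 212.2 ± 16.5 CPM (SD, n = 8 each), a log2 fold change of −0.19 ± 0.05 (adjusted p = 0.0104, edgeR).

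Hnrnph2 (chrX:134601179-134607060), which binds runs of G, ran from 89.9 to 102.8 CPM in virgins (median 97.3) and from 78.3 to 95.6 CPM in primiparous females (median 83.8). Hnrnpa3 (chr2:75659261-75669407) ran from 75.2 to 93.3 CPM in virgins (median 87.7) and from 55.3 to 84.6 CPM in primiparous females (median 69.8). In both genes all 8 primiparous libraries lay below the virgin mean, with log2 fold changes of −0.22 ± 0.05 and −0.30 ± 0.07 (adjusted p = 0.00483 and 0.00659, edgeR). Hnrnpl, a binder of CA repeats, was the 1 of these 17 genes that rose, at 0.14 ± 0.05 (adjusted p = 0.0324, edgeR). Hnrnpm, Hnrnph1 and Hnrnph3 are not among the 17, because their symbol cells are empty, and are described at the end. With them, 2 of 20 hnRNP genes rose, Hnrnpm being the other, and 5 fell. Hnrnpu, the scaffold attachment factor, had 403.9 ± 21.99 CPM in virgins and 386.5 ± 32.6 CPM in primiparous females (SD, n = 8 each; adjusted p = 0.216, edgeR).

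Of the 13 Prpf genes, 1 rose and 2 fell. The gene that rose was Prpf40b, a U1-associated factor. Prpf40b (chr15:99295087-99317018) ran from 57.4 to 73.6 CPM in virgins (median 61.9) and from 63.0 to 87.7 CPM in primiparous females (median 77.3). All 8 primiparous libraries were above the virgin mean, the log2 fold change was 0.28 ± 0.06 (adjusted p = 0.00539, edgeR), and the GC content of the exons is 57.0%.

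Prpf39, another U1-associated factor and the one with the lowest GC content of the 72 (37.6%), ran from 27.2 to 42.9 CPM in virgins (median 38.9) and from 17.5 to 38.1 CPM in primiparous females (median 32.0). The overlap was wide, and the log2 fold change was −0.32 ± 0.11 (adjusted p = 0.0426, edgeR). This call was lost in 9 of the 13 other settings and in 11 of the 16 fits that left out 1 library, with no change of sign. Prpf8, at the centre of the catalytic spliceosome, was at 293.1 ± 23.2 and 309.6 ± 18.1 CPM in virgin and primiparous females (SD, n = 8 each; adjusted p = 0.408, edgeR).

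**Figure D2:**
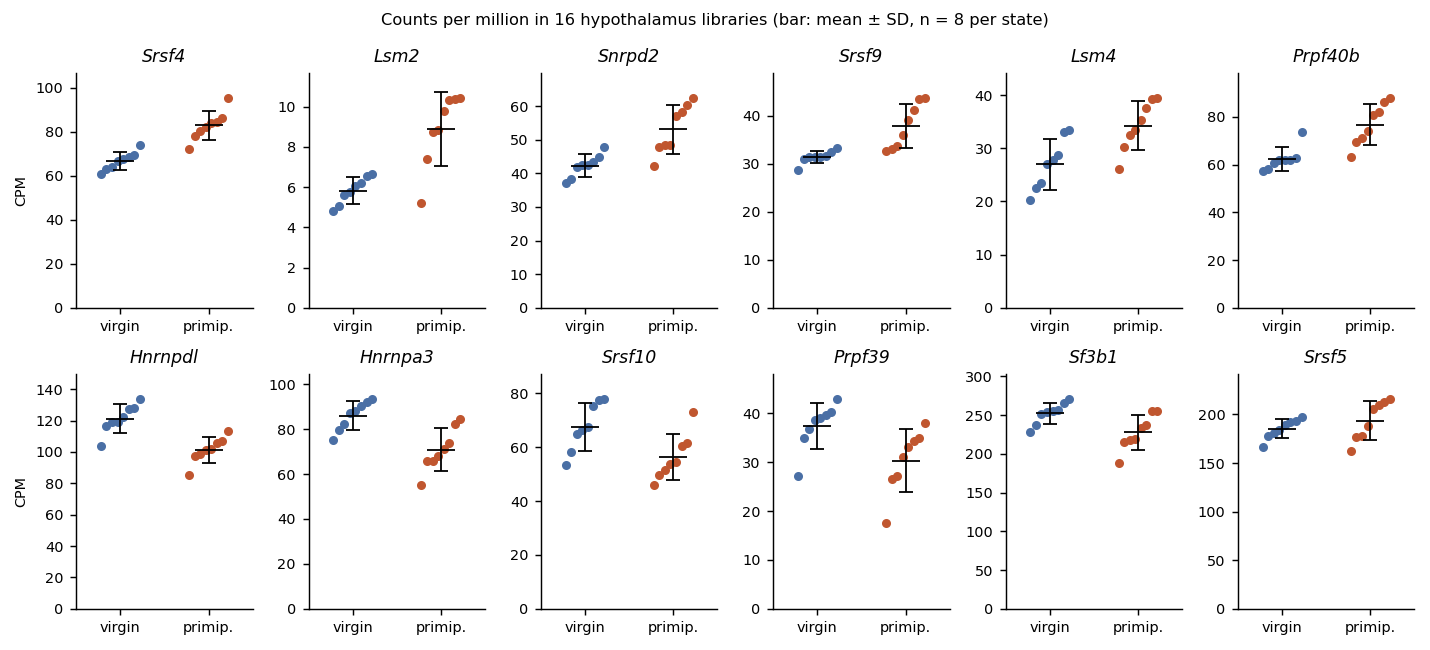
CPM (vertical axis, from 0) of 12 splicing factors in the 8 virgin and 8 primiparous hypothalamus libraries, with the mean and SD. Srsf4, Lsm2, Snrpd2, Srsf9, Lsm4 and Prpf40b are shifted upwards in primiparous females and Hnrnpdl, Hnrnpa3, Srsf10, Prpf39 and Sf3b1 downwards, with overlapping groups in each. Srsf5 passed the test only after the GC and length correction.

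Across the 72 splicing factors the change in the hypothalamus followed the GC content of the exons (Pearson's r = 0.65, Spearman's rho = 0.70), as it did across the 12648 tested genes with a known GC content (r = 0.63). These correlations are across genes of the same libraries and are given as a description. In each of 6 GC classes the median of the splicing factors lay above the median of all genes of that class: −0.12 against −0.29 below 40% GC, −0.14 against −0.19 from 40 to 44%, −0.04 against −0.08 from 44 to 48%, 0.06 against 0.02 from 48 to 52%, 0.13 against 0.11 from 52 to 56%, and 0.25 against 0.19 at 56% and above. Below 40% GC, 3 of 7 splicing factors fell, against 55.1% of all genes of that class. In the class from 40 to 44% it was 6 of 19, against 36.2%, and from 44 to 48% 3 of 18, against 14.7%. From 44 to 48% 1 of 18 rose, against 1.43%, and from 48 to 52% 1 of 15, against 4.79%. From 52 to 56% 4 of 9 rose, against 16.01% of all genes, and at 56% and above 3 of 4, against 33.9%.

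The dependence on GC content was also measured in each library. For each library, the slope of its log2 levels on GC content was taken relative to the mean of its region, in log2 units per 10 percentage points. In the hypothalamus the slope was −0.104 ± 0.091 in virgin and 0.104 ± 0.120 in primiparous libraries (SD, n = 8 each), with overlapping groups. The means differed (two-sided exact permutation test, p = 0.00295, adjusted over the 5 regions 0.0148). The neocortex had a difference of 0.156 in the same direction and the amygdala one of −0.097 in the other (exact permutation tests, adjusted p = 0.0635 and 0.0602). Correspondingly, r between GC content and change over the 72 genes was 0.67 in the neocortex, −0.59 in the amygdala, −0.20 in the hippocampus and 0.05 in the cerebellum.

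**Figure D3:**
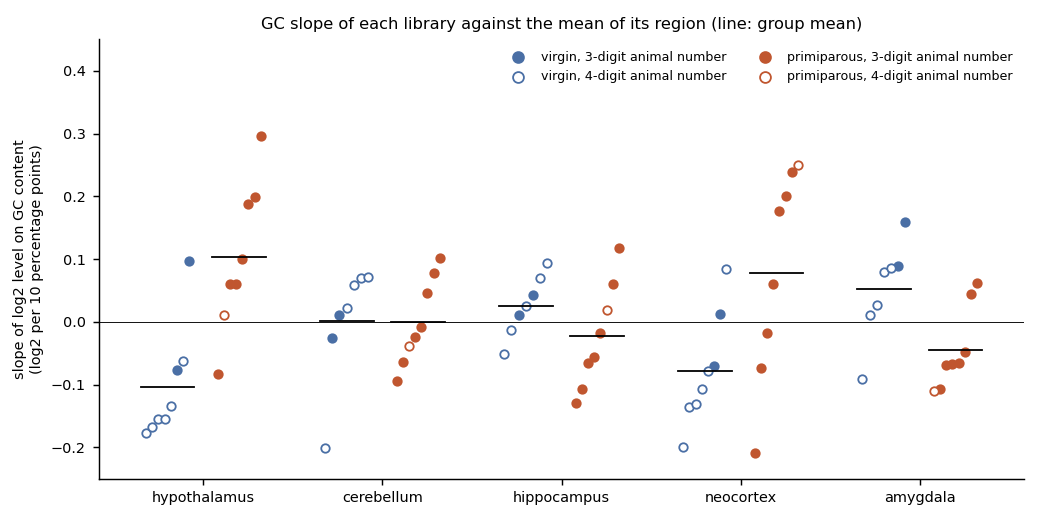
Slope of log2 level on GC content for each of the 77 libraries against the mean of its region (vertical axis, log2 per 10 percentage points), by region and state, with lines at the group means. Filled symbols are animals with 3-digit numbers and open symbols those with 4-digit numbers. The groups overlap in every region, and the primiparous mean lies above the virgin mean in the hypothalamus and neocortex and below it in the amygdala.

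When each library's trend with GC content and gene length was removed in the fit, 10 of the 72 splicing factors passed the test in the hypothalamus (13.9%), 9 higher and 1 lower, while the share of all genes was 2.95% (1.74% higher and 1.21% lower). Only 5 of these were among the 21 above: Srsf4 (0.22), Lsm2 (0.67), Snrpd2 (0.25) and Srsf9 (0.27) stayed higher and Hnrnpdl (−0.18) stayed lower, as log2 fold changes. The other 5 had adjusted p-values of 0.0581 or more before the correction and were higher after it: Srsf5 (0.29), Hnrnpa1 (0.25), Prpf38b (0.33), Hnrnpc (0.16) and Srsf6 (0.16). Their GC contents are low, from 38.8% in Prpf38b to 44.1% in Hnrnpa1. Of the 12 factors called lower, 4 changed sign with the correction (Hnrnph2, Hnrnpd and Sf3b1 among them), all to values of at most 0.02. The median of the 72 genes became 0.06 against 0.01 over all genes, and r with GC content became −0.09.

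Levels of these newly called factors overlapped between the groups as measured. Srsf5 (chr12:80945504-80950507) ran from 167.0 to 197.3 CPM in virgins (median 186.4) and from 162.5 to 215.6 CPM in primiparous females (median 196.9), and its adjusted p went from 0.619 to 0.000596 with the correction (edgeR). Hnrnpa1 (chr15:103240432-103246692) ran from 165.6 to 191.7 CPM in virgins (median 173.5) and from 182.8 to 207.2 CPM in primiparous females (median 190.3), and its adjusted p went from 0.0581 to 0.00222 (edgeR). Which of the fits is nearer to the levels in the tissue was not tested.

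**Figure D4:**
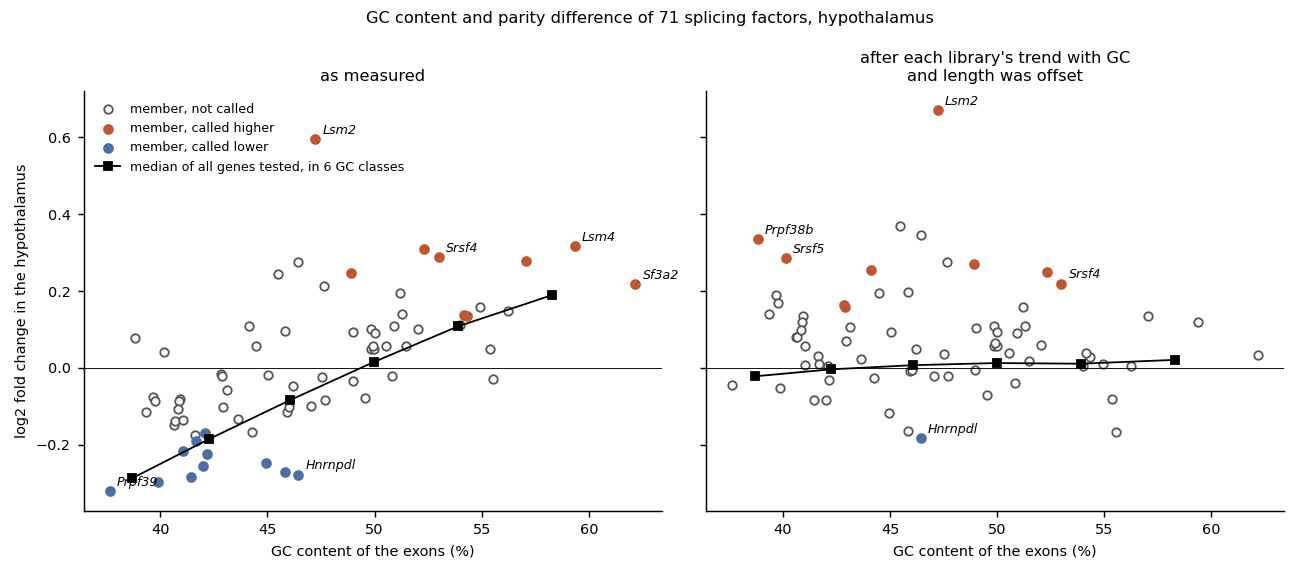
Log2 fold change in the hypothalamus (vertical axis) against GC content of the exons (horizontal axis, %) for 71 of the 72 splicing factors, as measured and after each library's trend with GC content and length was offset. The line joins the medians of all genes in 6 GC classes, at their median GC content. As measured, the line rises with GC content and the called genes scatter around it, and after the offset the line is near 0 and 9 of 10 called genes are above it.

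Animal numbers in the labels have 3 digits for 2 of 8 virgin and 7 of 8 primiparous females and 4 digits for the others, and the labels do not say what the numbering stands for. With the number of digits as a covariate no splicing factor passed the test in the hypothalamus (edgeR), and 3 of all 13016 genes did (0.023%, each of them lower). An unadjusted p under 0.05 was found there for 14 of the 72 splicing factors and for 1907 of all 13016 genes (edgeR). In the amygdala the covariate gave 0 splicing factors (edgeR; 11 at an unadjusted p under 0.05) with 0.0307% of all genes higher and 0.0768% lower. In the hypothalamus none of the 21 called factors changed sign with the covariate. Of these, 7 of the 9 that rose and 5 of the 12 that fell kept an unadjusted p under 0.05 (edgeR). The 21 were called on these same libraries, so the counts do not test the calls. The GC slope in the hypothalamus was −0.076 and 0.097 in the 2 virgins with 3 digits (animals 405 and 409), and it ran from −0.177 to −0.063 in the 6 with 4 digits, so that only animal 409 lay above that range. It was 0.117 on average in the 7 primiparous females with 3 digits (−0.083 to 0.296) and 0.011 in the 1 with 4 digits. State and numbering are partly confounded in these animals.

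Cell type markers were summed per library to set beside these calls. Markers of thalamus (6 genes, none at 0) summed to 474.1 to 695.4 CPM in virgin and 381.3 to 451.3 CPM in primiparous hypothalamus libraries, without overlap. Most of this sum came from Slc17a6, a glutamate transporter that hypothalamic neurons also express, at 391.4 ± 36.9 and 305.1 ± 29.5 CPM (SD, n = 8 each), and it was the 1 gene of the 6 that passed the test (−0.38 ± 0.06, adjusted p = 0.00098, edgeR). The other 5 did not pass, with log2 fold changes of −0.58 ± 0.35 in Prkcd, −0.50 ± 0.27 in Tcf7l2, −0.28 ± 0.13 in Plekhg1, −0.08 ± 0.11 in Rora and 0.10 ± 0.21 in Zic1. Neuron markers summed to 3608.9 to 4056.5 and 3489.0 to 3856.0 CPM, astrocyte markers to 1881.8 to 2297.1 and 1717.4 to 2645.6 CPM, and oligodendrocyte markers to 5174.5 to 6067.4 and 4955.5 to 6123.6 CPM in virgin and primiparous libraries. Blood markers (4 found, none at 0) summed to 25.2 to 53.5 and 32.0 to 103.2 CPM, and 2 of the 3 tested passed, both higher. The part of tissue composition in the changes of the splicing factors was not tested.

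Outside the hypothalamus no splicing factor passed the test. In the cerebellum 12 of 72 had an unadjusted p under 0.05 (16.7%, against 19.5% of all genes), and 0.707% of all genes passed after adjustment (0.599% higher). With the GC and length correction 1 of 72 passed, against 3.03% of all genes (2.14% higher). DESeq2 called 3 factors there (4.17%, with 3.67% of all genes), and leaving out primiparous animal 4493 gave 7 calls (9.72%, with 6.94% of all genes, edgeR). Hnrnpab, an hnRNP also known as CBF-A, had the smallest p in the cerebellum: it ran from 107.0 to 134.2 CPM in 7 virgins (median 123.5) and from 126.9 to 168.5 CPM in 8 primiparous females (median 141.9). The log2 fold change was 0.25 ± 0.06 (adjusted p = 0.0556, edgeR; 0.0151 with DESeq2 and 0.0378 in edgeR with the GC and length correction).

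In the hippocampus, neocortex and amygdala 6, 5 and 6 of 72 splicing factors had an unadjusted p under 0.05, against 7.38%, 9.80% and 11.9% of all genes, and no gene of the 13016 passed after adjustment (edgeR; 12, 0 and 54 genes with DESeq2). Without primiparous animal 413 the unadjusted count was 26 of 72 in the neocortex (2772 of 13016 genes) and 14 in the amygdala (1931 genes). In the neocortex it was 10, 8 and 11 without primiparous animal 414 or 415 or virgin animal 4486 (1681, 1415 and 1887 genes). It was also 15 there without normalization factors (1402 genes) and 21 with limma-voom quality weights (2657 genes). The fit of all 10 groups gave 1, 22 and 13 in the 3 regions (304, 2335 and 2085 genes). DESeq2 and limma-voom also called no splicing factor there. Srsf9 had the smallest p in the hippocampus, with 48.7 ± 2.73 CPM in 7 virgins and 43.7 ± 3.23 CPM in 8 primiparous females (SD; log2 fold change −0.15 ± 0.05), opposite in sign to the hypothalamus. Snrpa was first in the neocortex, with 39.8 ± 4.48 and 48.7 ± 8.48 CPM in 8 virgin and 8 primiparous females (0.33 ± 0.10), and Hnrnpa0 in the amygdala, with 180.6 ± 20.7 and 150.3 ± 15.5 CPM (−0.25 ± 0.07). The adjusted p-values were 0.595, 0.479 and 0.201 (edgeR).

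Whether the difference between states was itself different in the hypothalamus was tested as an interaction with each other region. It was called for 13 of 72 factors against the cerebellum (18.1%, with 15.5% of all genes), 12 against the hippocampus (16.7%, with 17.2%), 20 against the amygdala (27.8%, with 18.2%) and none against the neocortex, where no gene of the 13016 passed and no splicing factor had an unadjusted p under 0.05 (edgeR; limma-voom also called none). These tests share the hypothalamus libraries. With the animal as a block, since the same animals gave every region, the counts were 10, 8, 14 and 0, with 11.5%, 11.1%, 14% and 0% of all genes (13.9%, 11.1%, 19.4% and 0% of the splicing factors). Without the block, Srsf4, Prpf40b, Prpf6, Hnrnpa3 and Hnrnph2 were called against each of the cerebellum, hippocampus and amygdala. With it, Srsf4, Prpf40b and Hnrnpa3 were still called against all 3, Hnrnph2 against the hippocampus (adjusted p = 0.0411, edgeR) and Prpf6 against none (adjusted p = 0.0792, 0.121 and 0.0812, edgeR).

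Side by side, Srsf4 had log2 fold changes of 0.29 ± 0.05 in the hypothalamus, 0.13 ± 0.07 in the neocortex, 0.01 ± 0.05 in the cerebellum, −0.02 ± 0.05 in the hippocampus and −0.13 ± 0.06 in the amygdala. Lsm4 had 0.32 ± 0.10, 0.31 ± 0.16, 0.20 ± 0.11, −0.10 ± 0.06 and −0.33 ± 0.11 in the same order, and Hnrnpa3 −0.30 ± 0.07, −0.14 ± 0.07, 0.03 ± 0.06, 0.05 ± 0.05 and 0.06 ± 0.07. In these 3 genes the neocortex had the sign of the hypothalamus and the amygdala the opposite sign, while none passed the test in either region (edgeR). With both the animal block and the GC and length correction, 7 factors were called against the cerebellum, 3 against the hippocampus and 2 against the amygdala (9.72%, 4.17% and 2.78%, with 3.83%, 0.499% and 0.799% of all genes), all with the larger value in the hypothalamus. Hnrnpa1 was the factor called in all 3 of these comparisons (differences of 0.34, 0.28 and 0.35), and Srsf5 and Prpf38b were called against the cerebellum and hippocampus.

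Levels across regions were more even for splicing factors than for most genes. The ratio of the highest to the lowest regional mean had a median of 1.36 over the 72 genes and 1.72 over all genes, and it was under 1.5 in 52 of 72 (72.2%) against 34.3% of all genes. It ran from 1.13 in Hnrnpu to 2.40 in Srsf12. The highest mean was in the cerebellum for 42 of 72 factors (58.3%, against 37.1% of all genes) and the lowest in the amygdala for 32 (44.4%, against 19.7%). Per kilobase of exon, Hnrnpa2b1 (71.2 CPM per kb, mean of the regions), Hnrnpa0 (66.2) and Hnrnpab (55.4) had the highest levels and Snrpc (2.01) and Lsm2 (2.36) the lowest.

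Against the mean of the other regions, 8 splicing factors differed in the cerebellum by over 0.5 on the log2 scale (11.1%, against 39.5% of all genes), 3 in the hypothalamus (4.17% against 29.6%) and 1 in the hippocampus (1.39% against 20.2%). No factor passed in the neocortex or amygdala at this size (edgeR; 50 and 50 at an unadjusted p under 0.05 with no size limit; limma-voom also gave 0 and 0), where 21.7% and 18.9% of all genes did. In the cerebellum Lsm11 (0.97 ± 0.04), Prpf38b (0.89 ± 0.04), Prpf4 of the U4/U6 particle (0.58 ± 0.04), Prpf38a (0.53 ± 0.06) and Snrpb (0.51 ± 0.04) were higher and Srsf12 (−0.85 ± 0.06), Lsm10 (−0.72 ± 0.10) and Snrpb2 (−0.53 ± 0.06) lower, as log2 differences with SE. After the GC and length correction 15 passed in the cerebellum, 7 in the hypothalamus, 2 in the hippocampus, 1 in the neocortex and 0 in the amygdala (edgeR). Of all genes, 41.1%, 29.7%, 20.0%, 20.9% and 18.8% did.

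Srsf12 had its highest level in the hypothalamus, at 30.2 ± 3.64 CPM (SD, n = 16), and its lowest in the cerebellum, at 12.6 ± 2.10 CPM (n = 15), with 21.2 ± 2.95 in the amygdala, 20.4 ± 2.30 in the hippocampus and 15.6 ± 1.72 in the neocortex. The hypothalamus libraries lay above all cerebellum libraries, the amygdala and hippocampus did not differ beyond their spread, and the log2 difference of the hypothalamus from the other regions was 0.72 ± 0.05. Lsm11, of the U7 particle, had 91.3 ± 9.19 CPM in the cerebellum, where each library exceeded all libraries of the other regions, and 38.1 ± 3.30 CPM in the hypothalamus. Its U7 partner Lsm10 was at 4.11 ± 1.11 CPM in the cerebellum and between 5.74 and 6.98 CPM on average elsewhere. Lsm8, the subunit that distinguishes the U6 ring from the cytoplasmic LSm ring, was highest in the hippocampus (17.1 ± 2.09 CPM) and lowest in the hypothalamus (9.46 ± 1.62 CPM).

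**Figure D5:**
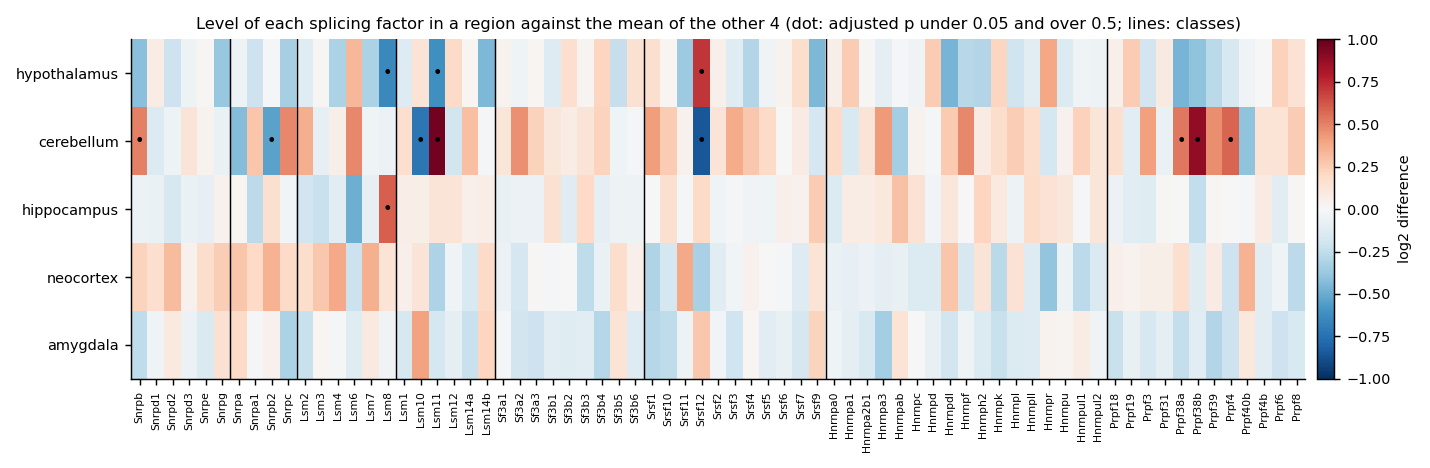
Log2 difference of 71 of the 72 splicing factors (horizontal axis, by class) in a region from the mean of the other 4 regions (rows), on a colour scale from −1 to 1. Dots mark the 12 values with an adjusted p under 0.05 and an absolute difference over 0.5, of which 8 are in the cerebellum.

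Other parts of the pathway were measured in the hypothalamus with the same test. Of 64 tested spliceosome proteins with other names, 11 rose and 4 fell (median 0.03), where 10.8% of all genes rose and 11.8% fell. The smallest p in each direction belonged to the export and splicing helicase Ddx39b at 0.34 ± 0.05 (adjusted p = 0.000469) and the U2-associated U2surp at −0.31 ± 0.08 (adjusted p = 0.00846, edgeR). Among 28 neuronal and tissue splicing regulators 5 rose and 10 fell (median −0.11), with the smallest p in Srrm3 at 0.30 ± 0.06 (adjusted p = 0.00352) and the glial regulator Qk at −0.37 ± 0.07 (adjusted p = 0.00208, edgeR). GC content stood apart in the same way, with medians of 54.4 and 42.6% for the spliceosome proteins that rose and fell and of 56.2 and 41.6% for the regulators. After the GC and length correction 3 rose and 0 fell in the former list (0 lower calls at an adjusted p under 0.05, edgeR) and 1 rose and 1 fell in the latter, where 1.74% of all genes rose and 1.21% fell. Qk and Ddx39b were among these calls, at −0.18 and 0.22.

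Of 7 SR protein kinases, which phosphorylate SR proteins, Clk3 rose (0.21 ± 0.06, adjusted p = 0.0151) and Srpk2 fell (−0.24 ± 0.06, adjusted p = 0.0085, edgeR). Of 15 proteins of the SMN complex and snRNP assembly, which load Sm rings onto RNA, Wdr77 fell (−0.26 ± 0.06, adjusted p = 0.00734, edgeR) and none rose. Over all genes 10.8% rose and 11.8% fell. Neither list kept a call after the correction (edgeR), where 2.95% of all genes passed.

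Promoters were examined because the factors that rose and fell differed in transcript GC content. RefSeq promoter windows (250 bases before to 50 after the start, GRCm38.p6) were found for 61 of the 72 genes. Median GC content of the windows was 65% for the factors that rose and 65% for those that fell, against 61% over all genes, so the split in exon GC content was not present there. The windows of Srsf4 and Hnrnpdl, the called genes with the smallest p in each direction, are shown, with a match to the ETS core CCGGAAG on either strand in capitals. They lie at chr4:131873387-131873686 on the + strand and at chr5:100039173-100039472 on the − strand, and the window of Hnrnpdl holds no match.
Srsf4: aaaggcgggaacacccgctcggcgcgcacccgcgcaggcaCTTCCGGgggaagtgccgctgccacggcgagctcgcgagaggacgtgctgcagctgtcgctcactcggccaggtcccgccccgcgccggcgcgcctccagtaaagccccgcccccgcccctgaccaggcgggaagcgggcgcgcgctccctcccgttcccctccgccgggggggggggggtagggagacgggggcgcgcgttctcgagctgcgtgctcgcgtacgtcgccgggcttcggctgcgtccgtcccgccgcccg
Hnrnpdl: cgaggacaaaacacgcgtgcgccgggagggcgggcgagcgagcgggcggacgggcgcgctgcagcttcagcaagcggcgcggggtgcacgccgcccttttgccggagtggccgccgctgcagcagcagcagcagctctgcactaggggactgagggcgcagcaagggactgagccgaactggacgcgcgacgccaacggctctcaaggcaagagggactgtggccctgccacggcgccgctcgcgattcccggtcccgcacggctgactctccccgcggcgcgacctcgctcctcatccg
On either strand, the ETS core CCGGAAG was found in 20 of 61 splicing factors (32.8%) and 19.0% of all genes with a window, the NRF1 motif in 21.3% and 11.1%, CCAAT in 49.2% and 42.9%, the YY1 motif AANATGGCG in 8.20% and 5.70% and TATAAA in 8.20% and 8.52%. The ETS core was present in 3 of 8 factors that rose and 3 of 10 that fell, the NRF1 motif in 4 and 1, CCAAT in 4 and 3, and the YY1 motif and TATAAA in 0 and 0. A match describes the sequence only.

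The symbols of a few rows need care. The row named Hnrnph1 carries the Entrez identifier of Plk5 (chr10:80356459-80365489) and the row named Hnrnpm that of Megf6 (chr4:154170730-154275713), and both are genes outside splicing. Megf6 was higher in primiparous hypothalamus (0.30 ± 0.07, adjusted p = 0.00555) and Plk5 did not pass the test (0.34 ± 0.13, adjusted p = 0.0584, edgeR). Identifiers of the true Hnrnph1, Hnrnpm and Hnrnph3 are present with an empty symbol cell. Hnrnpm rose, from 127.1 ± 8.09 to 148.7 ± 7.62 CPM (SD, n = 8 each), a log2 fold change of 0.20 ± 0.05 (adjusted p = 0.00539, edgeR), and 0.22 after the GC and length correction (adjusted p = 0.00446). Hnrnph1 was called lower at −0.15 ± 0.06 (adjusted p = 0.0496) and higher at 0.16 after the correction (adjusted p = 0.0204), and Hnrnph3 did not pass either test (edgeR). With the 74 rows as named, 22 were called in the hypothalamus, and with the 72 genes and these 3, 23 were called.

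Snrpn, the neuronal SmB-like gene of an imprinted locus, stayed below the filter with Snrpf and Lsm5. Snrpn was highest in the hypothalamus, at 2.57 ± 0.53 CPM in virgins and 2.89 ± 1.21 CPM in primiparous females (SD, n = 8 each), and lowest in the cerebellum (0.934 ± 0.260 and 1.05 ± 0.235 CPM, n = 7 and 8) and neocortex (0.954 ± 0.234 and 0.771 ± 0.241 CPM, n = 8 each). Reads that map to several places were not counted, so genes with processed pseudogenes or close copies, such as Hnrnpa1, Hnrnpa3 and Snrpe, may be undercounted. Whether the low counts of Snrpn, and their order over the regions, reflect its level in the tissue was not tested.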

How the data were processed

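Per the labels and the study's methods, polyadenylated RNA was sequenced as 100-base single-end reads, aligned with Hisat2 to mm10 and counted with featureCounts in Rsubread (inbuilt annotation, reads mapping once). The strand setting is not given in the sources used here. The deposited count table holds raw counts of 27179 genes, without normalization, in 77 of 80 samples, and 3 virgin samples that the labels mark as not included were not analysed here. The log2 table that the authors deposited holds 13016 genes and equals log2 of the count over a size factor plus 4 (largest difference 5e-05). It gave the gene symbols and, as an alternative, log2 values.

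The filter asked for 5 CPM or more in 8 or more libraries and left the same 13016 genes. CPM is the count scaled by the library total, without normalization factors. Each region was fitted in edgeR 4.0.16 (R 4.3.3; TMM, robust quasi-likelihood F-test), and regions and interactions in joint fits, with Benjamini-Hochberg adjustment over all genes. Alternatives used limma 3.58.1, DESeq2 1.42.0, offsets for each library's trend with GC content and length (splines with 4 degrees of freedom, for the 12648 genes with values, 97.2%) and an animal-number covariate. Tests were checked on simulated data, with results not given here.

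All regions came from the same animals, as the numbers in the labels state, so equal numbers pair libraries; the median correlation of same-animal deviations was 0.0119 to 0.077 over the pairs of regions. Single libraries are the replicates, each from 1 animal. Named genes are, per class, the 2 smallest p in the hypothalamus, the 3 largest and 3 smallest changes, the smallest p per other region, the extremes per region and Snrpn, Snrpb, Srsf2, Srsf3, Hnrnpu, Sf3b1 and Prpf8. Some results are not reported here, and figures leave out 1 splicing factor, which the counts include. Other genes are named because their calls or levels were seen. Members and lists were chosen with earlier results of these data known. Sequences come from GENCODE M21 and RefSeq; protein sequences were not used here.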

Additional observations from a re-analysis of the deposited data

Results flagged for a closer look

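For 28 named genes, the hypothalamus values of each state were checked for a single library that stood apart, which gave 6 of 56 sets of values. Chance gives about 1 in 20 for a single set, but the sets share the same libraries. The count therefore cannot show an excess. Lsm12 was at 29.3 CPM in primiparous animal 413 (group median 21.9) and Sf3b6 at 46.2 CPM in primiparous animal 415 (36.5). Snrpb was at 45.1 CPM in primiparous animal 418 (64.6). Virgin animal 409 stood apart in 3 genes, with Prpf40b at 73.6 CPM (61.9), Srsf12 at 26.6 CPM (33.2) and Hnrnpu at 355.7 CPM (409.4).

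The difference between states, on the log2 scale, was tested in the hypothalamus minus another region (edgeR interaction). Minus the cerebellum it was −0.46 in Snrpe, 0.64 in Lsm2, −0.36 in Lsm12, −0.28 in Sf3b6, 0.26 in Srsf4, −0.28 in Hnrnpdl, −0.23 in Hnrnph2, 0.49 in Prpf40b and −0.34 in Hnrnpa3. Minus the hippocampus it was 0.46 in Snrpd2, 0.60 in Lsm2, 0.41 in Lsm4, −0.20 in Sf3b1, 0.30 in Srsf4, 0.39 in Srsf9, −0.22 in Hnrnph2, 0.41 in Prpf40b, −0.36 in Hnrnpa3 and −0.45 in Srsf10. Minus the amygdala it was 0.44 in Snrpd2, 0.65 in Lsm4, −0.40 in Sf3b6, 0.42 in Srsf4, 0.36 in Srsf9, −0.27 in Hnrnph2, 0.46 in Prpf40b, −0.51 in Prpf39, −0.35 in Hnrnpa3, −0.35 in Srsf10, 0.31 in Hnrnpa0, 0.40 in Snrpb and −0.24 in Srsf3. With the animal as a block, the adjusted p passed 0.05 for Lsm4 (0.0589) and Sf3b1 (0.0964) against the hippocampus, Hnrnph2 (0.102 and 0.0513) against the cerebellum and amygdala, and Prpf39 (0.128) and Srsf3 (0.0583) against the amygdala.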

How the results depend on the processing

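In the hypothalamus the count of 21 became 10 with the GC and length offset, 11 with the GC offset, 0 with the animal-number covariate, 35 with limma-voom quality weights and 13 to 33 when single libraries were left out, and other settings gave 17 to 26. The share of all genes called moved with these counts, to 2.95%, 2.60%, 0.023%, 37.6% and 15.5 to 31.6%. In the cerebellum the count of 0 became 3 with DESeq2, 1 with the GC and length offset, 3 with the GC offset, 3 with quality weights, 1 in the fit of all 10 groups and 0 to 7 without single libraries (7 without primiparous animal 4493, 1 without primiparous animal 425 or virgin animal 405), with 3.67%, 3.03%, 2.85%, 4.75%, 0.730% and 0.0461 to 6.94% of all genes. Between regions, counts without the size limit were 44, 56, 35, 49 and 47 (hypothalamus, cerebellum, hippocampus, neocortex, amygdala; 77.6%, 82.4%, 66.5%, 73.9% and 66.6% of all genes), with the GC and length offset 7, 15, 2 and 1 in the first 4 (29.7%, 41.1%, 20.0% and 20.9% of all genes), and without normalization factors 15 in the cerebellum and 2 in the hippocampus (41.2% and 21.1% of all genes). With the replicate block by animal the interaction counts of 13, 12 and 20 (cerebellum, hippocampus, amygdala) became 10, 8 and 14, and with the block and the GC and length offset 7, 3 and 2. The GC and length offset alone gave 8 against the cerebellum, 8 against the hippocampus and 5 against the amygdala (5.53%, 1.22% and 1.60% of all genes). The block changed no count between regions. The cause was not tested.

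Of the 72 genes, 23 turned sign with the GC and length offset and 10 with the animal-number covariate. Among genes chosen by the naming rule and reported here, the log2 fold changes that turned were as follows. With the GC and length offset they were 0.14 in Snrpb2, 0.0036 in Sf3b1, 0.0077 in Hnrnph2, −0.082 in Hnrnpa0, 0.19 in Lsm8, 0.13 in Srsf3 and 0.12 in Hnrnpu. With the GC offset they were 0.13 in Snrpb2, 0.016 in Sf3b1, −0.085 in Hnrnpa0, 0.18 in Lsm8, 0.14 in Srsf3 and 0.13 in Hnrnpu. With the animal-number covariate they were 0.022 in Snrpb2, 0.14 in Lsm8 and −0.018 in Prpf8. Without single libraries Hnrnpa0 ran from −0.0028 (without primiparous animal 413) to 0.086 (418), and Lsm11 from −0.066 (418) to 0.011 (4493), with 0.0011 without virgin animal 4490. Over the named genes and settings, 698 values kept their direction and side of the threshold, 85 lost and 10 gained a call, and 19 turned. In the hypothalamus the lowest counts in a single library were 51 for Lsm2 and 56 for Lsm8, which limits their precision.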
